A study of Caenorhabditis elegans with 6 samples.

Results

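The piRNA biogenesis genes described here are 10 genes chosen by name: prde-1, snpc-4, prg-1, prg-2, henn-1 and tofu-1 to tofu-5. All 10 names were found in each of the 3 deposited tables, among 46761 features per table. The small RNAs came from whole gravid adults of Caenorhabditis elegans strain BCN1050, an N2-background line with the unc-119(ed3) allele and an integrated array, crgIs1002, that holds a daf-21 promoter driving mCherry with the 3′ UTR of unc-54, and a wild-type unc-119 copy. Both groups carry this array. The 3 High libraries trace back to P0 worms held at 25 °C and the 3 Low libraries to P0 worms held at 16 °C. P0 animals of both groups went to 20 °C at the L4 stage, and RNA was taken from their F2 descendants after 72 hours of growth at 20 °C, so the animals sequenced had not themselves lived at 16 or 25 °C. The age of the sequenced animals is given as gravid adult, and each library pools many worms. The tables hold small RNAs and no mRNA levels of marker genes, so the stage label was not checked against markers.

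In the worm germline, piRNAs are short RNAs that begin with uridine, also called 21U-RNAs, and that guide the Piwi Argonaute PRG-1 to transcripts. Each is transcribed from its own small locus as a precursor, cut at its 5′ end, loaded into PRG-1, and trimmed and methylated at its 3′ end. Transcripts recognised by PRG-1 are then used as templates for 22G RNAs, which RNA-dependent RNA polymerases synthesise and which can carry silencing into later generations. The values below are small RNAs counted over the genes of this machinery. They are a measure of small RNAs assigned to those genes, not of the genes' mRNA or protein.

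Across the 6 libraries, 12748358 reads of the 22G class, 147085 of the 26G class and 279046 of the 21U class were counted, and 22G depth ranged from 1380170 reads (Low replicate 1) to 2685999 (Low replicate 2). Low replicate 1 stood apart in the other classes. Its normalized total was 57142 in the 26G class, against 17491 to 25760 in the other 5 libraries, and 59360 in the 21U class, against 41430 to 45567. The number in the column header of Low replicate 1 also lay outside the run of the other libraries, and what that number stands for is not stated. Of 9402 features tested in the 22G class, 8.3% were called at an adjusted p under 0.05 by limma-trend, 5.64% higher in High and 2.66% lower. No source used here states which strand was counted, and sense and antisense reads over a gene cannot be separated. Small RNA over a gene in whole worms can fall because fewer cells carry it or because each cell carries less, and these cannot be told apart.

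22G RNAs over prde-1 were higher in High than in Low, by about 1.6-fold, and prde-1 was the only member of the 10 to pass the test. Its product is a nuclear germline protein needed to make piRNA precursors. The other 9 genes did not pass, and their log2 differences lay between -0.14 and 0.54. All 10 genes had enough 22G signal in both groups for a test, and none was covered well enough by 26G RNAs. In the 21U class, prg-1 was the only member with enough reads to test, and it did not pass.

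**Figure D1:**
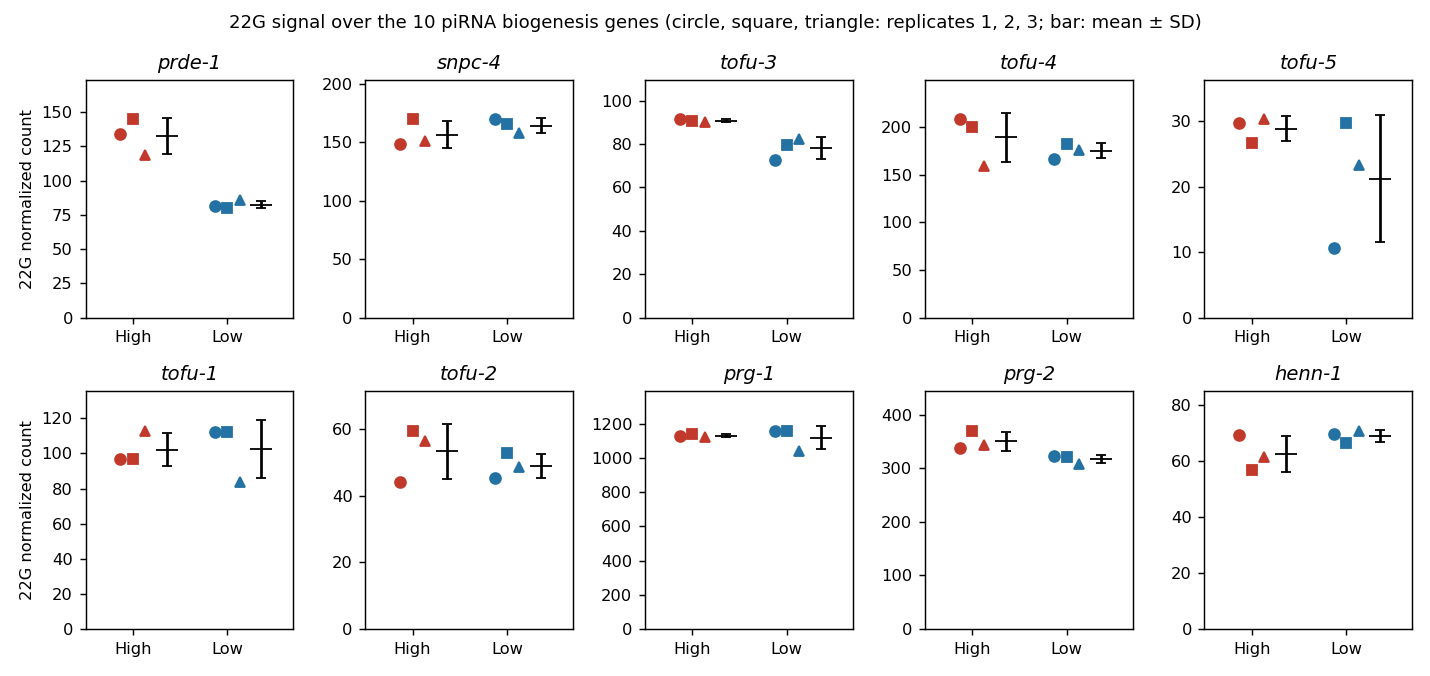
22G normalized counts (y axis, from 0, its own scale in each panel) of the 10 genes in the 3 High (red) and 3 Low (blue) libraries, with the group mean ± SD as a black bar beside the points. The High points of prde-1 lie between 119 and 145 and the Low points between 80.2 and 85.7.

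The first set of genes acts in piRNA transcription. SNPC-4, a subunit of the small nuclear RNA activating protein complex that binds promoters of short noncoding RNA genes, occupies piRNA loci together with PRDE-1, TOFU-4 and TOFU-5. For prde-1 the High libraries, in the order of replicates 1 to 3, had 22G normalized counts of 134, 145 and 119, and the Low libraries, in the same order, 81.8, 80.2 and 85.7. Every High library lay above every Low library. The group means were 133 ± 13.1 and 82.6 ± 2.84 (SD, n = 3 each). On the log2(normalized count + 1) scale High minus Low was 0.67 ± 0.12 (SE), with a 95% interval of 0.41 to 0.93 and a limma-trend adjusted p of 0.00302. The corresponding fold was 1.59, with an interval from 1.33 to 1.91. These values rested on 430 reads in High and 240 in Low, and counting alone gives an error of 0.12 on the log2 difference, about the size of the fitted SE.

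The rise of prde-1 was a small one when set beside the other features called higher in the 22G class. Over all tested features of the class the median log2 difference was 0.01. The prde-1 value of 0.67 lay inside the range that holds most of these tested features, from -0.66 to 1.08. Among the 530 features called higher in High, 442 had a larger log2 difference than prde-1 and 87 a smaller one, and their median was 1.47. The call was kept in each of the 6 fits that left out a library, with log2 differences from 0.61 to 0.75 and adjusted p-values from 0.00444 to 0.0230 (limma-trend). Without Low replicate 1 the log2 difference was 0.67 (limma-trend adjusted p = 0.00664).

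snpc-4 had 22G normalized counts of 149, 169.7 and 151 in High and 169.7, 166 and 158 in Low. The groups overlapped, and the log2 difference was -0.07 ± 0.10 (SE, n = 3 each; limma adjusted p = 0.804), with a 95% interval of -0.29 to 0.14. tofu-4 had 208, 199.9 and 159.6 in High and 167, 183 and 176 in Low. Its High libraries spread on both sides of the Low ones, and the log2 difference was 0.10 ± 0.11 (adjusted p = 0.743, interval -0.15 to 0.36). Thus the 22G signal of these partners of prde-1 was not shown to differ, and the intervals end below a difference of the size seen at prde-1.

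tofu-5 had the fewest 22G reads of the 10 genes, 162 in all. Its normalized counts were 29.7, 26.6 and 30.3 in High and 10.6, 29.8 and 23.3 in Low, and Low replicate 1 was the low value. The log2 difference was 0.54 ± 0.33 (limma adjusted p = 0.480) with a wide interval of -0.20 to 1.27, and it was 0.13 without Low replicate 1 and 0.83 without Low replicate 2. The interval holds both 0 and a difference of the size seen at prde-1.

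tofu-3, which came out of a screen for genes needed for 21U-RNAs, had 91.4, 90.6 and 90.02 normalized counts in High and 72.7, 79.4 and 82.6 in Low. The High libraries all lay above the Low ones. The log2 difference of 0.21 ± 0.12 did not pass (limma adjusted p = 0.416, interval -0.05 to 0.47). No gene named tofu-3 was matched in the annotations used here, so no length or neighbour is given for it.

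**Figure D2:**
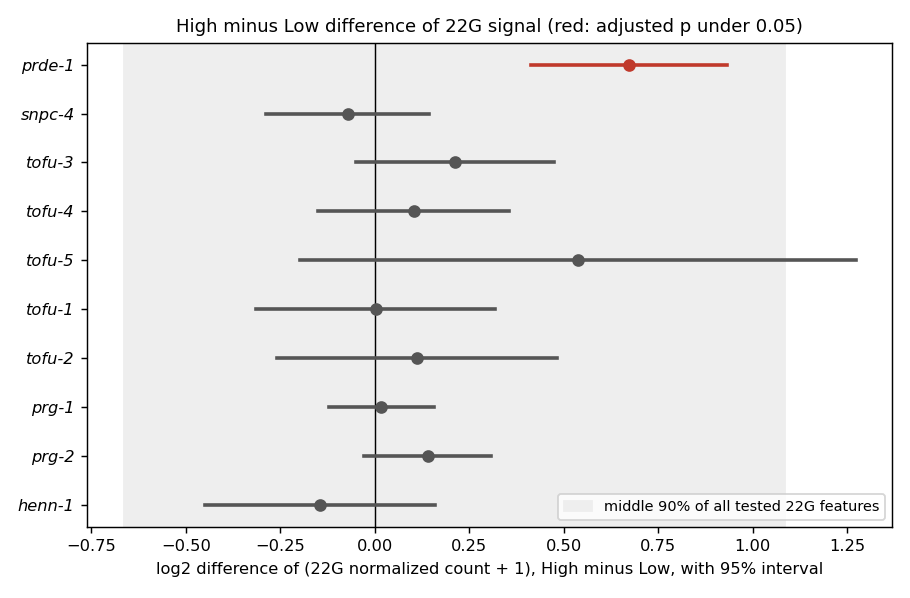
High minus Low difference of log2(22G normalized count + 1) for each of the 10 genes (x axis), with the point as the limma estimate and the line as its 95% interval; the grey band holds the middle 90% of all tested 22G features, from -0.66 to 1.08. The interval of prde-1, shown in red, is the only one of the 10 that excludes 0.

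The next set of genes acts after transcription. TOFU-1 and TOFU-2 are subunits of the nuclease that cuts piRNA precursors at the 5′ end, and TOFU-2 holds the catalytic site. For tofu-1 the 22G normalized counts were 96.9, 96.8 and 113 in High and 112, 112 and 83.6 in Low. The groups overlapped, with Low replicate 3 the lowest library, and the log2 difference was 0.00 ± 0.14 (SE, n = 3 each; limma adjusted p = 0.995) with an interval of -0.31 to 0.32. tofu-2 had 44.0, 59.5 and 56.5 in High and 45.5, 52.7 and 48.7 in Low. These groups overlapped too (0.11 ± 0.17, adjusted p = 0.825, interval -0.26 to 0.48).

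henn-1 encodes the methyltransferase that adds the 2′-O-methyl group at the 3′ end of piRNAs and of the 26G RNAs bound by ERGO-1. Its 22G normalized counts were 69.4, 56.8 and 61.4 in High and 69.7, 66.5 and 70.9 in Low. High replicate 1 lay within the Low values and the other High libraries below them. The log2 difference was -0.14 ± 0.14 (limma adjusted p = 0.690, interval -0.45 to 0.16).

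PRG-1 is the Argonaute that holds the finished piRNA. prg-1 had the most 22G reads of the 10 genes, and its normalized counts were 1127, 1143 and 1125 in High and 1161, 1157 and 1044 in Low. Of the members' summed 22G signal it made up 49.3% ± 0.781 (SD, n = 3) in High libraries and 51.4% ± 1.16 in Low libraries. The 3 High values lay inside the Low range, and the log2 difference was 0.02 ± 0.06 (SE, n = 3 each; limma adjusted p = 0.940). With 6952 reads, prg-1 had the tightest interval of the 10, from -0.12 to 0.16. It turned slightly negative with equal totals per library, and also without Low replicate 3 (-0.03).

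prg-2, a close copy of prg-1 that Ensembl release 115 annotates as a pseudogene, had 338, 370.4 and 343 normalized counts in High and 323, 322 and 309 in Low. Every High library lay above every Low one, but the log2 difference of 0.14 ± 0.08 did not pass (limma adjusted p = 0.404, interval -0.03 to 0.31). prg-1 and prg-2 have similar sequences, and how multi-mapping reads were handled is not stated, so the division of reads between them is uncertain.

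Read over the set, 1 of the 10 genes was called higher in the 22G class and 0 lower, where 5.64% and 2.66% of all tested features were. The High and Low libraries did not overlap in 3 of the 10 (prde-1, tofu-3 and prg-2), each with High above Low, where 22.7% of all tested features did not overlap, 12.8% with High above and 9.97% with High below. The log2 difference was above 0 in 8 of the 10 and below 0 in snpc-4 and henn-1, though that of tofu-1 turned below 0 with TMM scaling or equal totals per library, and that of prg-1 with equal totals. The median over the 10 was 0.11, beside 0.01 over all tested features. Summed over the 10 genes, the 22G normalized count was 2298 ± 55.4 in High and 2180.3 ± 87.9 in Low (SD, n = 3), or 0.110% ± 0.00296 and 0.106% ± 0.00346 of the 22G signal. Without prde-1 the sums were 2166 ± 42.9 and 2098 ± 90.7.

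Per kilobase of exon, the order of 22G levels could be given for 9 of the 10 genes, using exon lengths of Ensembl release 115. prg-1 was highest, at 422 ± 16.1 normalized counts per kb (SD over 6 libraries). prg-2 (132 ± 8.53) and tofu-4 (121 ± 12.5) came next, and their library ranges overlapped each other but not that of prg-1. Below a further gap lay tofu-1 (69.8 ± 8.17), prde-1 (59.8 ± 15.9) and snpc-4 (52.3 ± 3.02), and neighbours in that order overlapped. henn-1 (43.1 ± 3.64) and tofu-2 (37.6 ± 4.53) overlapped each other, and tofu-5 (24.6 ± 7.44) was lowest. Of 7004 tested protein-coding genes with a length, 94.3% had a lower level per kb than prg-1, 63.6% a lower one than prde-1 and 33.2% a lower one than tofu-5, around a median of 41.2. The position of prde-1 among the members depended on the group. It stood at 65.9 to 80.4 per kb in High, around the tofu-1 range of 66.0 to 77.0 there. In Low, prde-1 stood at 44.6 to 47.6, below all Low values of snpc-4 (51.4 to 55.3) and overlapping those of henn-1 (43.6 to 46.5).

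**Figure D3:**
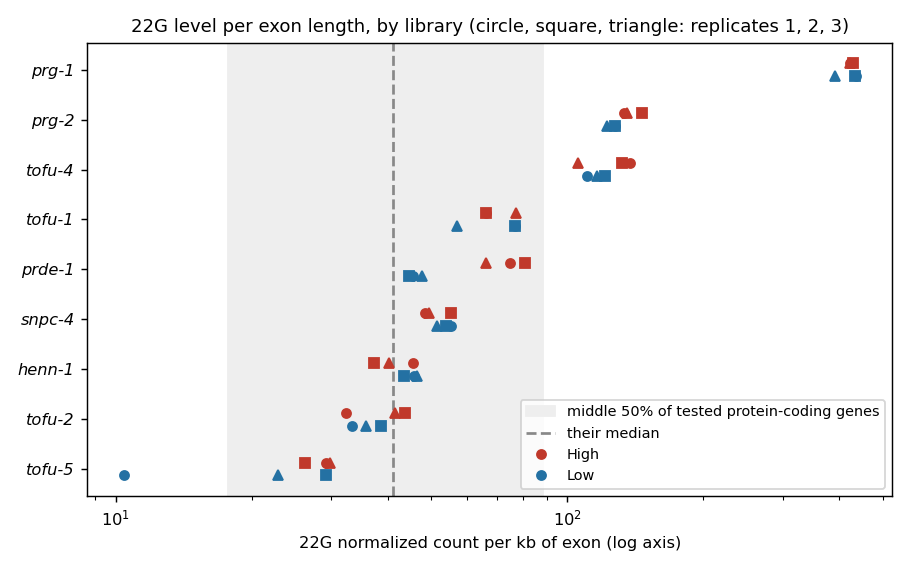
22G normalized count per kb of exon (x axis, log scale) in each High (red) and Low (blue) library for the 9 genes with an exon length, ordered by mean; the grey band is the middle 50% of tested protein-coding genes (17.8 to 88.3) and the dashed line their median of 41.2. prg-1 lies far to the right of the other 8 genes, and the High and Low points of prde-1 are apart.

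The prde-1 gene holds a second gene inside it. In the WBcel235 annotation of Ensembl release 115, prde-1 spans 8843 bp of chromosome V with 1800 bp of exon, and the globin gene glb-14 lies within it on the opposite strand, with 0 bp of exon shared. 22G RNAs over glb-14 varied little across libraries, at 2062, 1963 and 1996 normalized counts in High and 1970.1, 1933 and 2046 in Low. The log2 difference of glb-14 was 0.02 ± 0.05 (SE, n = 3 each; limma adjusted p = 0.923), with an interval of -0.10 to 0.14 that does not reach that of prde-1. F21A3.4, the next gene upstream on the same strand, 184 bp away, had 3.303, 15.1 and 3.27 in High and 1.52, 0.764 and 1.06 in Low. Every High value of F21A3.4 lay above every Low one, but the signal was too little for a test. High replicate 2 held 17 of the 27 reads of F21A3.4. acr-18, the next gene on the other side, was at 8.81, 7.99 and 2.46 in High and 3.03, 2.29 and 7.41 in Low and did not pass (0.48 ± 0.58, adjusted p = 0.772). The difference between glb-14 and prde-1 in their response was not itself tested.

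**Figure D4:**
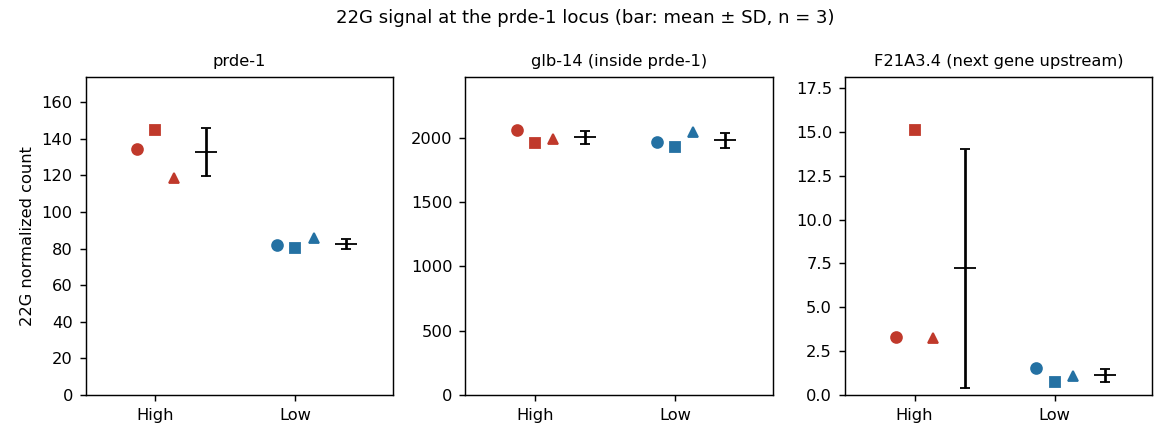
22G normalized counts (y axis, from 0, its own scale in each panel) of prde-1, of glb-14, which lies inside prde-1 on the opposite strand, and of the next gene upstream, F21A3.4, in the High (red) and Low (blue) libraries with mean ± SD. prde-1 differs between groups, and glb-14 stays between 1933 and 2062. F21A3.4 is low in all libraries but High replicate 2, with every High point above every Low one.

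Other members overlapped their neighbours by little. mdt-31 shares 16 bp of exon with snpc-4, D2030.12 shares 12 bp with prg-1, F57C9.6 shares 92 bp with tofu-4 and W01A8.6 shares 17 bp with tofu-5. henn-1 shares 10 bp with fbxl-1 and 86 bp with C02F5.14. mdt-31 and D2030.12 were tested in the 22G class and did not pass (limma adjusted p = 0.359 and 0.654), C02F5.14 and W01A8.6 were at 0 in all 6 libraries, and F57C9.6 had at most 1.64 normalized counts in a library.

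The features whose 22G pattern over the 6 libraries was most like that of prde-1 were atx-3, Y34F4.5 and E_BE45912.2. Their Pearson correlations with prde-1 on the log2 scale were 0.994, 0.994 and 0.992, a description over 6 points that share the split between groups. atx-3, the ataxin-3 deubiquitinase gene, had 255, 269 and 228 normalized counts in High and 171, 179 and 185 in Low (0.49 ± 0.09, limma adjusted p = 0.00597). Y34F4.5 had 124, 147 and 97.4 in High and 42.4, 35.9 and 50.8 in Low, and E_BE45912.2 had 157, 246 and 144 against 40.9, 33.6 and 41.3.

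Further genes of the pathway gave no call in the 22G class. Of 44 partner genes in 3 lists, 41 were matched to a feature, 14 of them by sequence name, and 39 were tested. limma-trend called 0 higher and 0 lower, with 1 at an unadjusted p under 0.05, where 1658 of all 9402 tested features (17.6%) were, and 0 were called by edgeR, by DESeq2 or under any other setting tried. For the transcription partners, 13 of 15 were tested, with a median log2 difference of 0.03. The members with the highest counts were the subunit genes snpc-3.2 (1459.7 ± 134 in High and 1423 ± 128 in Low) and snpc-3.1 (1419 ± 124 and 1392 ± 98.3), whose values ran so close together that reads may have been shared. snpc-3.4, named after its values were seen, was the gene with the unadjusted p under 0.05. It had 23.1, 28.4 and 28.6 normalized counts in High and 45.5, 37.4 and 38.1 in Low, with every High library below every Low one, and did not pass after adjustment (-0.58 ± 0.19, limma adjusted p = 0.120).

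The precursor processing list had 9 of 11 genes tested and a median of 0.13. parn-1, the nuclease gene for trimming of the 3′ end, had High and Low means of 1099 ± 12.6 and 1075 ± 21.3 (SD, n = 3 each; limma adjusted p = 0.851), and slfl-3, which encodes a partner of TOFU-1 and TOFU-2, was at 199.7 ± 7.09 and 179 ± 7.30 (adjusted p = 0.413). Of the effector and germ granule genes 17 of 18 were tested, with a median of 0.02. The nuclear Argonaute gene hrde-1 had a log2 difference of -0.09 ± 0.06 and pid-2, a germ granule factor gene of piRNA silencing, of -0.03 ± 0.07 (adjusted p = 0.546 and 0.905).

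Reads of the 26G class over the members were close to none. The class was sparse over all features too, as 4119 of 46761 had any read in it and 272 reached the mean needed for a test. The 26G class is named after primary small RNAs made with Dicer. The 10 genes together had 10 of its 147085 reads, of which prg-1 had 4, snpc-4 and tofu-3 had 2 each, and prg-2 and henn-1 had 1 each. prde-1, tofu-1, tofu-2, tofu-4 and tofu-5 had 0 reads, which allows a share of up to 0.00204% of the class at 3 counts. None of the 10 reached the mean of 5 normalized counts needed for a test.

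The 21U class held 95 reads over the members, 0.0340% of the class. prg-1 had 3, 5 and 7 reads in the High libraries and 7, 6 and 3 in the Low libraries, and prg-2 had 3, 3 and 3 in High and 6, 12 and 1 in Low. prg-1, with a mean of 5.31 normalized counts, passed the minimum of 5, and prg-2, at 4.62, did not. The log2 difference of prg-1 was -0.26 ± 0.54 (SE, n = 3 each, limma adjusted p = 0.790), with an interval of -1.46 to 0.94. In this class limma-trend called 0.169% of 592 tested features. That share depended on the tool, as DESeq2 called 69 features, 67 of them lower in High. The median over all tested 21U features was -0.38, or -0.02 with TMM scaling, and under TMM scaling prg-1 was at 0.07. With a library left out prg-1 ranged from -0.58 without Low replicate 3 to -0.10 without High replicate 1, and without Low replicate 1 it was below the minimum for a test. tofu-4 had 16 reads and snpc-4 had 9, the other 5 genes with any had 1 to 4, and henn-1 had 0, which allows up to 0.00108% of the class. In the main fit, differences over members other than prg-1 were not tested in this class.

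**Figure D5:**
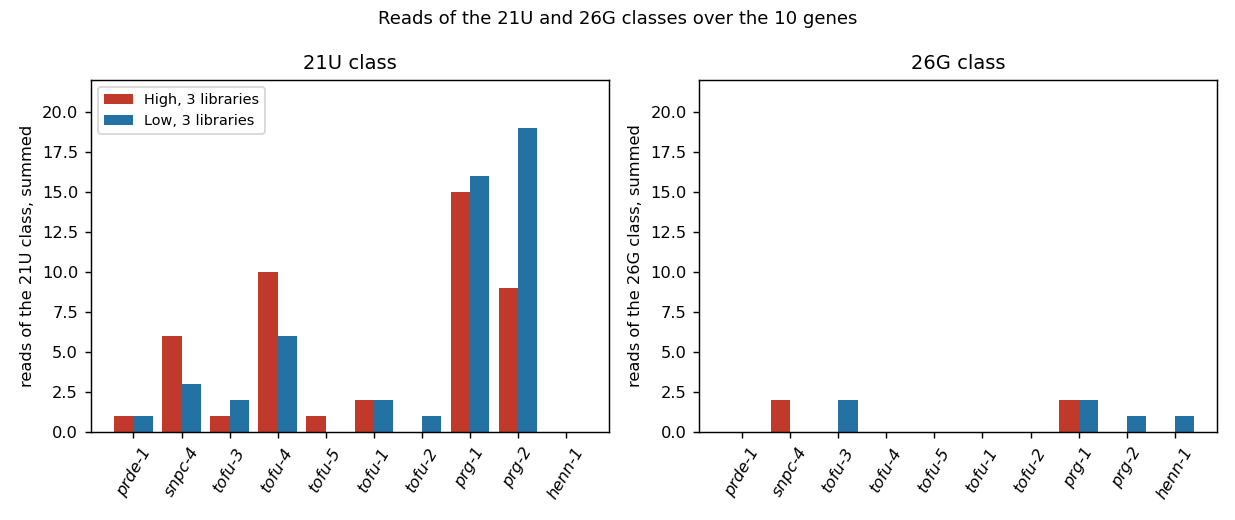
Reads of the 21U class (left) and of the 26G class (right) over each of the 10 genes, summed over the 3 High (red bars) and the 3 Low (blue bars) libraries; both y axes count reads on the same scale. prg-1 (15 in High, 16 in Low), prg-2 (9 and 19) and tofu-4 (10 and 6) hold most 21U reads, and no gene has more than 4 reads in the 26G class.

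The 21U class as a whole, whose name is that of the pathway's product, had a mean 16.0% lower in High. Its summed normalized count was 42122 ± 1045 in High and 50138 ± 7987 in Low (SD, n = 3). The 3 High libraries lay between 41430 and 43324 and the 3 Low ones between 45486 and 59360, so the groups did not overlap. The two-sided exact permutation test gave p = 0.1, the smallest that 20 assignments allow. Low replicate 1 set the size of the difference, which was -8016 with it and -3404 without it. As a share of the reads of the 3 classes, 21U reads were 1.97% ± 0.0649 in High and 2.34% ± 0.305 in Low (exact permutation p = 0.1). Whether this total moved with the 22G signal over prde-1 was not tested.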

How the data were processed

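Small RNA of 3 High and 3 Low libraries was sequenced as 50-nt reads on inserts of 18 to 36 bp from 1 µg of total RNA treated with phosphatase and polynucleotide kinase, per the labels' protocols. Per the submitters' processing notes, the tools were DESeq2 1.8.1, featureCounts 1.4.6, Bowtie 1.1.1 and cutadapt 1.7.1. No source used here gives the build, annotation, strand, class definitions or handling of multi-mapping reads. The values deposited are a signal per feature and library, namely read counts scaled by the size factor of the library (0.660 to 1.31, the same in the 3 tables). All nonzero values (100% within 0.01 reads) were whole multiples of a step, so whole reads were recovered.

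Features with a mean of at least 5 were tested in the whole table of a class with limma-trend (limma 3.58.1, R 4.3.3) on log2(normalized count + 1), two-sided, Benjamini-Hochberg adjusted, threshold 0.05. This filter left 9402, 272 and 592 features in the 22G, 26G and 21U classes. On recovered reads, edgeR 4.0.16 called 772 features in the 22G class and DESeq2 1.42.0 called 703, beside 780 by limma-trend. edgeR and DESeq2 used the authors' size factors.

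The members, lists, tests and alternatives were chosen with earlier results of these data known. By the rule for named genes all 10 members are named, of each list the genes past the threshold and the 2 with the highest mean, and the 3 features most like the member with the smallest adjusted p. Sequence names of partner genes were matched through RefSeq locus tags, and lengths and neighbours come from Ensembl release 115 (WBcel235); prg-2 was matched there through its RefSeq locus tag.

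The labels name biological replicates without saying what separated the cultures. The p-values of the fits set the group difference against the spread between these libraries within a group. No pair of libraries of a group agreed within counting noise in a chi-square comparison of 22G reads (2.18 to 5.32 per degree of freedom), so none was treated as a library deposited more than once. Floors and counting errors cover counting error only. On simulated data with the feature means of the 22G class, limma-trend found 66.7% of 2-fold and 85.7% of 4-fold changes, with 6.83% of calls false. The shares were 23.4% and 80.6% with 4.72% false in the 21U class, and 3.45% and 58.6% with 14.3% false in the 26G class. Figures were drawn with Matplotlib 3.10.9.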

Additional observations from a re-analysis of the deposited data

How the results depend on the processing

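The number of members called in the 22G class was 1 in the main test and under all 17 alternatives, which included other pseudocounts, filters and scalings, limma without trend, edgeR, DESeq2 and each library left out. It was 0 in the other classes, which says nothing of stability: in the 26G class members were tested with no filter only (5 of them), and in the 21U class none was tested at a minimum mean of 20 or without Low replicate 1. edgeR without Low replicate 1 was chosen after seeing the data. The adjusted p of prde-1 ranged from 0.000802 with no filter to 0.0238 in limma without trend. With a replicate block the log2 difference of prde-1 was 0.67 and its limma adjusted p 0.00899. That fit called 1 member, and the block changed no call of a member. Correlations of deviations were 0.03, 0.05 and 0.02 between libraries of the same number and from -0.08 to 0.04 between libraries of different numbers. These small values do not settle whether replicate numbers pair the libraries. The log2 difference of tofu-1 in the 22G class, 0.0028, turned to -0.0022 with TMM scaling, -0.014 with equal totals, -0.0027 in edgeR and -0.0029 in DESeq2, and ranged from -0.14 to 0.073 with a library left out. That of prg-1 turned to -0.00038 with equal totals and ranged from -0.034 to 0.043 with a library left out. With a library left out, values of other uncalled members that moved by over 1.5 times ran from 0.030 (without High replicate 1) to 0.22 (without High replicate 3) for tofu-4, from 0.029 (without High replicate 2) to 0.24 (without High replicate 1) for tofu-2, from -0.22 (without High replicate 1) to -0.079 (without High replicate 2) for henn-1 and from -0.13 (without High replicate 2) to -0.036 (without High replicate 1) for snpc-4. In the 21U class prg-1 turned to 0.075 with TMM scaling; the cause was not tested. The difference of the 21U total stayed below 0 in each alternative, from -10341 to -3404 with a library left out. Calls over all features of the 21U class, 1 by limma-trend, were 0 with the block, 3 with TMM, 28 with no filter, 2 at a minimum mean of 20, 69 in DESeq2 and 0 to 53 with a library left out; in the 26G class 0 were called by limma-trend and edgeR with all libraries, 3 had an unadjusted p under 0.05 by limma-trend, DESeq2 called 12, and without Low replicate 1 limma-trend called 1 and edgeR 2. Limma without trend called 524 features in the 22G class.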
